A study of Mus musculus with 12 samples.

Results

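The 10 genes described here all code for ubiquitin ligases of muscle or their substrate-recognising subunits: Trim63, Fbxo32, Fbxo30, Fbxo40, Asb2, Asb5, Asb10, Asb11, Asb14 and Asb15. They were taken by gene symbol from the platform annotation of the deposited array table, in which each of the 10 had 1 transcript cluster (the set of probes for a transcript), out of 22180 genes with a symbol of their own. All 10 were bright enough to enter the tests, as did 13747 genes in all. The 12 Affymetrix whole-transcript arrays measured RNA of the plantaris, a calf muscle rich in fast fibres, from male mice aged 12 weeks that had gone without food for 3 hours. There were 3 arrays in each of 4 groups: REDD1 knockout mice 1 hour after they had completed 1 aerobic exercise bout, REDD1 knockout mice kept sedentary, wild-type mice 1 hour after the same kind of bout, and wild-type mice kept sedentary. The labels call the knockout by the name REDD1 alone, give no promoter, Cre driver or background strain, and state no pooling of animals. They do not say how the 3 samples of a group relate to litters or days, so p-values here measure the spread between these samples.

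Muscle protein is marked for breakdown by ligases that attach ubiquitin to chosen targets, and the proteasome then degrades them. MuRF1 (gene Trim63) is a single-chain RING ligase of the sarcomere, F-box proteins such as atrogin-1 (Fbxo32) bring targets to a cullin-1 complex, and ASB proteins, which carry ankyrin repeats and a SOCS box, bring them to a cullin-5 complex. Trim63 and Fbxo32 are the classical marker genes of muscle wasting and are known to be switched on by FoxO transcription factors and by glucocorticoids, while insulin and growth factor signalling through Akt holds them down. REDD1, encoded by Ddit4, is a stress-induced inhibitor of the mTORC1 growth pathway.

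The Trim63 promoter is shown because Trim63 is the member that passed the test of exercise, and because both classes of known regulator have a recognition sequence in it. RefSeq windows (GRCm38.p6) before the start site were at hand for 9 of the 10 members, in 13 windows. Fbxo32 had no window, so it was not searched for any motif. The 250 bases before the Trim63 start lie at chr4:134314870-134315119 on the plus strand. In capitals, in order, stand a glucocorticoid receptor palindrome (GAACA and TGTTC with any 3 bases between them, 208 to 196 bases before the start), the FoxO core on the opposite strand (GTAAACA, 194 to 188 bases before the start) and an E-box for myogenic factors (CAGCTG, 72 to 67 bases before the start).
Trim63: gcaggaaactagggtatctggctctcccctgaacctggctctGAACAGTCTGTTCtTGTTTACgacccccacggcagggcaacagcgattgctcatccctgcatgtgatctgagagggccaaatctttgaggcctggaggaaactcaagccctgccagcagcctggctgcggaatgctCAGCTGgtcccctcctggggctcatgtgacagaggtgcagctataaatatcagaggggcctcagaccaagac
On both strands, the palindrome was found in 13 of 32851 windows of this length in the genome's genes (0.0396%), and Trim63 was the only member among them. The FoxO core was in 1040 windows (3.17%), again with Trim63 as the only member, and the E-box in 4271 windows (13%), of which Trim63 and Fbxo40 were members. The CREB site TGACGTCA was in 508 windows (1.55%) and in no member's. These are matches of letters in short windows, and no binding was measured here.

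The MEF2 motif, named for the muscle factor that binds it, was in 959 windows (2.92%), those of 3 members among them. The stretches of these 3 members, Fbxo40, Asb5 and Asb14, are shown with the motif in capitals. In Fbxo40 the match lay in the window at chr16:36990468-36990717 and not in that at chr16:36979137-36979386. The Fbxo40 stretch lies at chr16:36990549-36990578 on the minus strand, that of Asb5 at chr8:54571348-54571377 and that of Asb14 at chr14:26894574-26894603, both on the plus strand, each written 5′ to 3′ along its gene's strand.
Fbxo40: gaacacagggTTATAATTAGagcaagaggc
Asb5: agtctctgctTTAAAAATAGaaaatggtac
Asb14: tatagtaaagCTATTTATAAtggtcaccgg
Here too no binding was measured, and the part of the motif in the members' levels was not tested.

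The deposited values of each array had a median near the table median of 4.56 on the log2 scale. Normalisation is not stated and can make medians alike, so this is no measure of signal depth. Ddit4, the gene of the knockout, stood at 6.46, 5.72 and 6.77 in exercised knockout muscle and at 5.32, 5.44 and 5.08 in sedentary knockout muscle. In wild-type muscle it stood at 9.05, 8.40 and 8.62 after exercise and at 6.13, 5.83 and 6.02 at rest. It was lower in the knockout over both conditions (log2 fold change -1.54, limma adjusted p = 0.000137), and whether its probes lie in the deleted part is not given in the sources used here. All 10 fast-muscle markers listed were measured, and their mean level lay between -0.043 and 0.042 of its 12-array average on every array. Their probes lie close to the top of the table (means 12.0 to 13.6), so this evenness is no measure of muscle content. Other tissue markers differed more. On knockout sedentary array 3 the extracellular matrix list (9 of 10 measured) was 1.04 above its average and the Schwann cell list (5 of 8 measured) 0.78 above. On wild-type exercised array 1 the Schwann cell list was 0.85 above and the immediate-early gene list 1.31 above. The Schwann cell list was 0.78 above on knockout exercised array 2 as well, so a high value of it was not particular to those arrays. Knockout sedentary array 3 and wild-type exercised array 1 are below called the 2 arrays that stood apart. For some differences the value without either or both is given too, a choice made after their values were seen.

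Across the 4 groups, 8 of the 10 members had their highest mean in exercised knockout muscle, while Fbxo40 and Asb14 had theirs in sedentary wild-type muscle. Of all genes tested, 23.9% had their highest mean in exercised knockout muscle and 31.1% in sedentary wild-type muscle. Between neighbours in that order the arrays overlapped in 26 of 30 pairs (86.7%), against 95.1% of such pairs over all genes. The exceptions were Asb5 in exercised knockout above exercised wild-type and in exercised wild-type above sedentary wild-type muscle, Asb11 in exercised knockout above exercised wild-type muscle, and Asb14 in sedentary wild-type above exercised knockout muscle. The spread of group means was widest for Trim63, at 1.36 log2 units, followed by Fbxo32 at 0.82 and Asb15 at 0.53, and narrowest for Asb10, at 0.10. Probes differ in brightness, so levels of different genes are not set against each other.

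**Figure D1:**
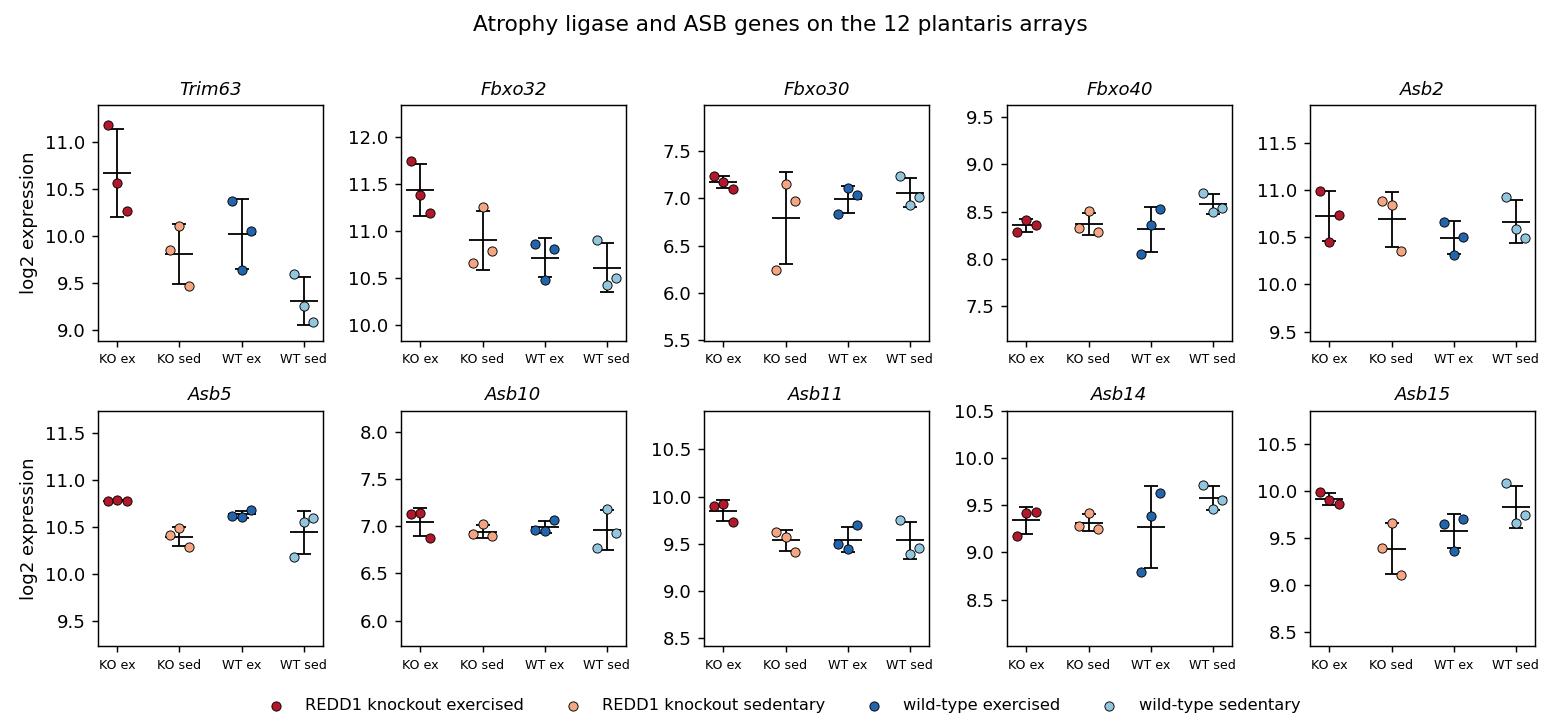
Log2 expression of the 10 genes (y axis, 1 panel a gene, panels share the same height in log2 units) in REDD1 knockout exercised, REDD1 knockout sedentary, wild-type exercised and wild-type sedentary plantaris. Points are single arrays, long bars group means and whiskers 1 SD (n = 3); Trim63 is higher after exercise in both genotypes, and the 3 exercised knockout arrays of Asb5 all lie at 10.78.

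Exercise was tested within each genotype and as the average of both, which asks how the muscle responds 1 hour after a bout. Averaged over genotypes, Trim63 rose by 0.79 ± 0.16 log2 units (SE, 6 arrays against 6), and no other member passed the test. Trim63 stood at 11.18, 10.56 and 10.27 in exercised knockout muscle, against 9.86, 10.10 and 9.47 in sedentary knockout muscle. In wild-type muscle it stood at 10.37, 9.64 and 10.06 after exercise, against 9.59, 9.26 and 9.09 at rest. Within each genotype every exercised array lay above every sedentary one. The limma adjusted p of the average was 0.0193 (95% interval 0.44 to 1.13). This makes 1 of 10 members called, against 1.60% of all genes tested, and 2 of 10 members (Trim63 and Asb5) whose exercised arrays lay wholly above the sedentary ones in both genotypes, against 1.44% of all genes. Trim63, Fbxo32 and Asb5 were higher at an unadjusted limma p under 0.05, 3 of 10 members against 5.22% of all genes.

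The call for Trim63 was near the threshold. Its average change was 0.61 with an adjusted p of 0.0695 when both arrays that stood apart were left out, and the adjusted p was 0.0541, 0.0542 and 0.0535 without wild-type sedentary array 2, wild-type sedentary array 3 or wild-type exercised array 3. Within single genotypes no member passed. In knockout muscle Trim63 differed by 0.86 ± 0.23 (adjusted p = 0.170, 1.82-fold if the unstated log base is 2), and in wild-type muscle by 0.71 ± 0.23 (adjusted p = 0.300, 1.64-fold). The wild-type difference was 0.54 without wild-type exercised array 1. The difference between the knockout and wild-type exercise effects was 0.15 ± 0.32 for Trim63, with an interval of -0.53 to 0.84. Effects unequal by as much as either bound were thus not separable with 3 arrays a group. In whole muscle, a change in the share of a cell type and a change in RNA per cell cannot be told apart.

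Fbxo32, the other classical atrophy gene, did not pass in either genotype. It stood at 11.74, 11.38 and 11.19 in exercised knockout muscle, against 10.66, 11.26 and 10.79 in sedentary knockout muscle. In wild-type muscle it stood at 10.86, 10.48 and 10.81 after exercise, against 10.91, 10.43 and 10.51 at rest. Sedentary knockout array 2 reached into the exercised range, and the wild-type groups covered nearly the same span. Its exercise effect was 0.54 ± 0.17 in knockout muscle (adjusted p = 0.300) and 0.10 ± 0.17 in wild-type muscle (adjusted p = 0.942), and the average was 0.32 ± 0.12 (adjusted p = 0.310).

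Fbxo30, the F-box protein MUSA1, whose loss spares muscle after denervation in mouse, ranged from 7.11 to 7.24 in exercised knockout muscle, against 6.24 to 7.16 in sedentary knockout muscle. In wild-type muscle it ranged from 6.83 to 7.11 after exercise, against 6.93 to 7.23 at rest. The low end in sedentary knockout muscle was array 1 alone, and the groups overlapped in both genotypes. Fbxo40, a muscle F-box protein known to target the insulin receptor substrate IRS1, stood at 8.28, 8.41 and 8.36 in exercised knockout muscle, against 8.32, 8.51 and 8.29 in sedentary knockout muscle. After exercise in wild-type muscle it stood at 8.05, 8.35 and 8.53, against 8.70, 8.50 and 8.54 at rest. Its wild-type difference of -0.27 ± 0.12 (adjusted p = 0.571) rested partly on exercised array 1, the lowest of all 12 arrays, and was -0.14 without it.

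Among the ASB genes, Asb5 came closest to the threshold. Asb5, described in rabbit arteries growing collateral vessels, stood at 10.78, 10.78 and 10.78 in exercised knockout muscle, against 10.41, 10.50 and 10.29 in sedentary knockout muscle. In wild-type muscle it stood at 10.62, 10.61 and 10.68 after exercise, against 10.18, 10.56 and 10.60 at rest. Exercised arrays were above all sedentary ones in both genotypes, narrowly so in wild-type muscle. The averaged difference was 0.29 ± 0.071 with a limma adjusted p of 0.0629. Leaving out single arrays moved it between 0.22 (adjusted p = 0.146, without wild-type sedentary array 1) and 0.33 (adjusted p = 0.0400, without wild-type sedentary array 3), and it was 0.26 (adjusted p = 0.126) without both arrays that stood apart.

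Asb15, which slows differentiation when overproduced in mouse muscle cells in culture, had the most unequal response. It stood at 9.99, 9.90 and 9.86 in exercised knockout muscle, against 9.39, 9.65 and 9.11 in sedentary knockout muscle. Its wild-type levels were 9.65, 9.36 and 9.70 after exercise, against 10.08, 9.65 and 9.75 at rest. All 3 exercised knockout arrays lay above the sedentary knockout ones, while the wild-type groups overlapped with the exercised mean the lower. The exercise effect was 0.53 ± 0.14 in knockout muscle (adjusted p = 0.170) and -0.26 ± 0.14 in wild-type muscle (adjusted p = 0.704).

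Asb11, which in zebrafish acts on the Notch ligand Delta, stood at 9.90, 9.92 and 9.73 in exercised knockout muscle, against 9.62, 9.57 and 9.41 in sedentary knockout muscle. After exercise in wild-type muscle it stood at 9.49, 9.44 and 9.70, against 9.76, 9.39 and 9.46 at rest. The knockout groups did not overlap and the wild-type groups did, and the effect in knockout muscle was 0.32 ± 0.11 (adjusted p = 0.354). Asb14 ranged from 9.18 to 9.43 in exercised knockout muscle, against 9.25 to 9.42 in sedentary knockout muscle. In wild-type muscle Asb14 ranged from 8.79 to 9.63 after exercise, against 9.46 to 9.71 at rest, the low end again being exercised array 1. The wild-type difference of Asb14 was -0.30 ± 0.16 (limma adjusted p = 0.699), and -0.062 without that array.

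Asb2, which directs the cytoskeletal proteins called filamins to degradation, ranged from 10.45 to 10.99 in exercised knockout muscle, against 10.36 to 10.88 in sedentary knockout muscle. For Asb2 the wild-type ranges were 10.31 to 10.66 after exercise, against 10.49 to 10.93 at rest. Asb10, a gene studied in human glaucoma, ranged from 6.87 to 7.14 in exercised knockout muscle, against 6.89 to 7.02 in sedentary knockout muscle. Its wild-type range was 6.95 to 7.07 after exercise, against 6.77 to 7.18 at rest. For both genes the groups overlapped in each genotype, and the averaged exercise differences were -0.070 for Asb2 and 0.067 for Asb10 (limma adjusted p = 0.885 and 0.832).

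**Figure D2:**
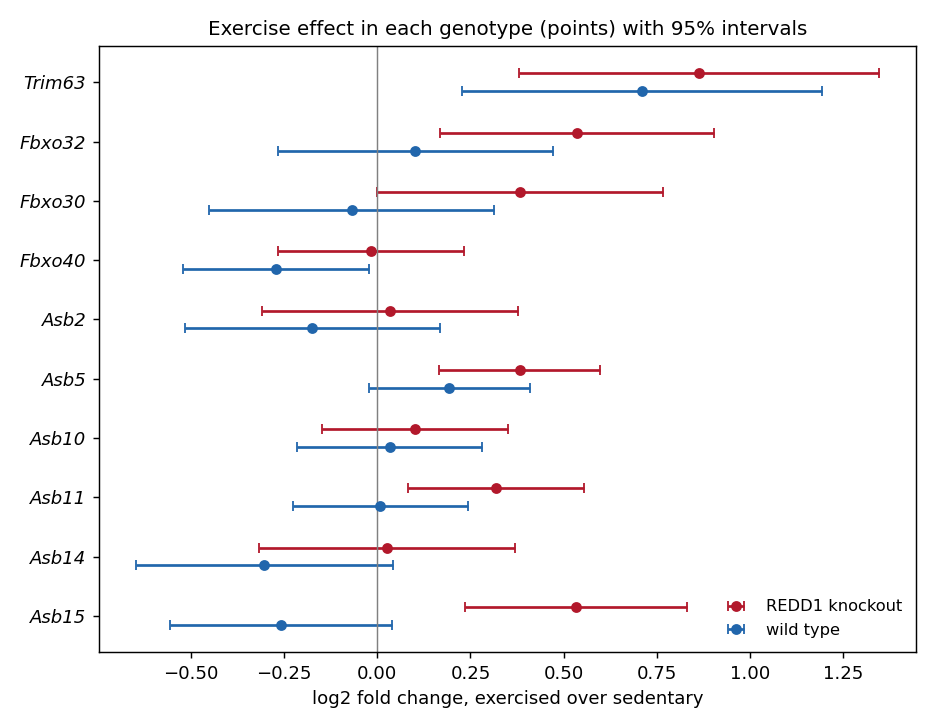
Exercise effect on each gene as a log2 fold change, exercised over sedentary (x axis), in REDD1 knockout and wild-type muscle. Points are limma estimates and bars 95% intervals (3 arrays a group); the knockout point lies to the right of the wild-type point for all 10 genes, the gap being widest for Asb15 (0.53 and -0.26).

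Within knockout muscle, 0 of 10 members were called for exercise, against 0.276% of all genes, and 5 of 10 were higher at an unadjusted limma p under 0.05 (Trim63, Fbxo32, Asb5, Asb11 and Asb15), against 4.31% of all genes. The exercised arrays of Trim63, Asb5, Asb11 and Asb15 lay wholly above the sedentary ones, 4 of 10 against 7.13% of all genes. Without knockout sedentary array 3 the effects in knockout muscle were 0.69 for Trim63, 0.48 for Fbxo32, 0.33 for Asb5, 0.26 for Asb11 and 0.39 for Asb15. Trim63 and Fbxo32 were lowest without knockout exercised array 1, at 0.61 and 0.38. In wild-type muscle 0 of 10 members were called, against 0.567% of all genes. There 1 member was higher and 1 lower at an unadjusted p under 0.05 (Trim63 and Fbxo40), against 3.95% and 4.26% of all genes, and the arrays of Trim63 and Asb5 were higher without overlap, 2 of 10 against 5.75%. The median exercise effect over the 10 members was 0.35 in knockout muscle, where that of all genes was -0.0023, and -0.030 in wild-type muscle, where that of all genes was -0.019. These 4 groups also differed in other markers: the endothelial list was lower in every exercised array (-0.22 to -0.056 in knockout and -0.10 to -0.046 in wild-type muscle) than in every sedentary one (0.10 to 0.16 in knockout and 0.047 to 0.17 in wild-type muscle), and its part in the members' values was not tested.

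Whether the response to exercise differed between the genotypes was tested as the exercise effect in knockout muscle minus that in wild-type muscle. No member passed, and neither did any other gene (0% of all genes tested). The largest difference among the members was that of Asb15, 0.79 ± 0.20 (interval 0.37 to 1.21), with an unadjusted limma p of 0.00118 and an adjusted p of 0.997. By unadjusted p it stood at place 11 among 13747 genes. It was 0.65 without knockout sedentary array 3, the array with high matrix and Schwann cell markers, 0.83 without wild-type exercised array 1, and 0.69 without both.

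The other differences of exercise effects were 0.45 ± 0.25 for Fbxo30, 0.43 ± 0.24 for Fbxo32, 0.33 ± 0.23 for Asb14, 0.31 ± 0.16 for Asb11, 0.25 ± 0.17 for Fbxo40, 0.21 ± 0.23 for Asb2, 0.19 ± 0.14 for Asb5 and 0.068 ± 0.17 for Asb10. Single arrays carried much of several of them. Without wild-type exercised array 1 the difference was 0.088 for Asb14 and 0.12 for Fbxo40, and without both arrays that stood apart 0.057 and 0.082. For Fbxo30 it was 0.18 without knockout sedentary array 1, and for Asb2 0.039 without knockout sedentary array 3. All 10 members had a positive difference, against 53.2% of all genes, with a median of 0.28 where that of all genes was 0.016. The count was not stable: Trim63 turned to -0.019 without knockout sedentary array 3 and to -0.10 without knockout exercised array 1, and Asb10 to -0.043 without wild-type sedentary array 2 and to -0.0088 with array weights. Only Asb15 had an unadjusted p under 0.05, 1 of 10 members against 4.51% of all genes in either direction. Every one of these differences uses the same 12 arrays, so an array that runs high or low moves several members together.

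The knockout was then set against wild type within each condition. In exercised muscle Fbxo32 stood apart most among the members: 11.74, 11.38 and 11.19 in knockout against 10.86, 10.48 and 10.81 in wild-type muscle, with no overlap. The difference was 0.72 ± 0.17 (interval 0.35 to 1.09, 1.65-fold), with an unadjusted limma p of 0.000807 and an adjusted p of 0.198, so it did not pass. Leaving out single arrays moved it between 0.57 (without knockout exercised array 1) and 0.85 (without knockout exercised array 3). It was 0.79 without wild-type exercised array 1. In the same comparison the extracellular matrix list (9 of 10 measured) lay at -0.31 to -0.18 in knockout against -0.11 to 0.13 in wild-type muscle, and the macrophage and leukocyte list (8 of 8 measured) at -0.093 to -0.052 against -0.024 to 0.14. Neither overlapped, and their part in the members' differences was not tested. Asb5, Asb11 and Asb15 were also without overlap, at 0.14 ± 0.10, 0.31 ± 0.11 and 0.35 ± 0.14, making 4 of 10 members higher without overlap, against 6.06% of all genes. Trim63 differed by 0.65 ± 0.23 (adjusted p = 0.539), its lowest knockout array lying at 10.27 and its highest wild-type array at 10.37. Its difference was 0.82 without wild-type exercised array 1. With single arrays left out it lay between 0.39 (without knockout exercised array 1) and 0.85 (without knockout exercised array 3). In all, 0 of 10 members were called in exercised muscle, against 0.175% of all genes, and 4 of 10 (Trim63, Fbxo32, Asb11 and Asb15) were higher at an unadjusted p under 0.05, against 3.17%.

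In sedentary muscle 0 of 10 members were called, against 0.138% of all genes. The only members past an unadjusted limma p of 0.05 were Trim63 at 0.50 ± 0.23 and Asb15 at -0.44 ± 0.14, 1 higher and 1 lower, against 3.32% and 4.38% of all genes. Without knockout sedentary array 3 the Trim63 difference was 0.67, and without knockout sedentary array 2 it was 0.35. Asb15 in sedentary muscle had its knockout arrays at 9.39, 9.65 and 9.11, against 10.08, 9.65 and 9.75 in wild-type muscle, where the highest knockout array met the lowest wild-type one. Its adjusted p was 0.413, and the difference was -0.31 without knockout sedentary array 3. Asb14 alone had no overlap at rest, lower in knockout muscle by its ranges (9.25 to 9.42, against 9.46 to 9.71 in wild-type muscle), 1 of 10 members against 7.73% of all genes.

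**Figure D3:**
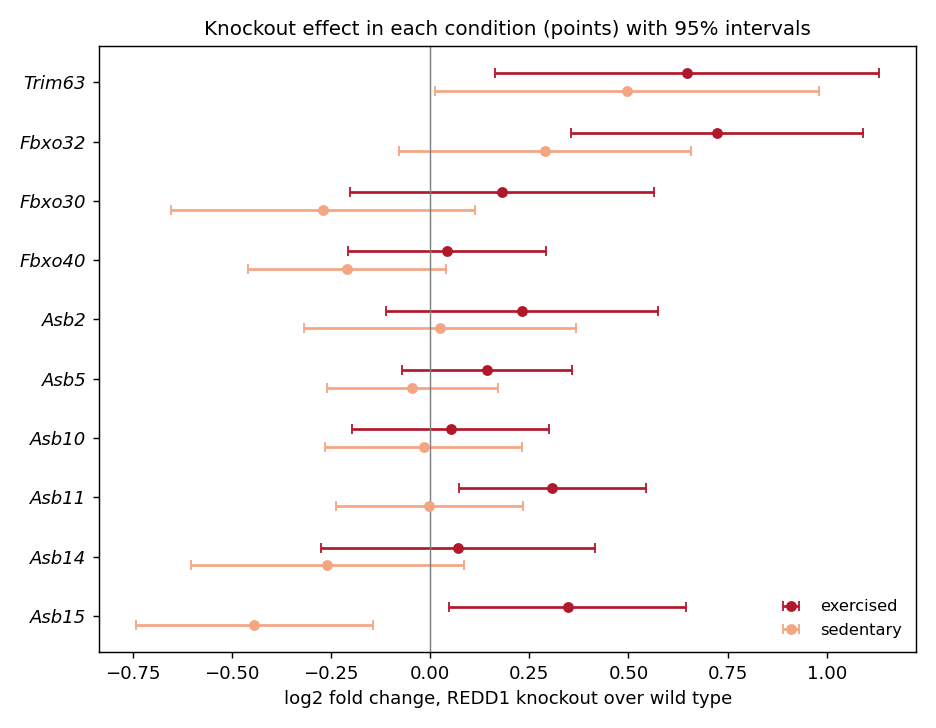
Knockout effect on each gene as a log2 fold change, REDD1 knockout over wild type (x axis), in exercised and sedentary muscle. Points are limma estimates and bars 95% intervals (3 arrays a group); Trim63 and Fbxo32 lie to the right of 0 in both conditions, and Asb15 lies to the right in exercised (0.35) and to the left in sedentary muscle (-0.44).

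Averaged over conditions, a comparison added after the values were seen, the knockout had 0 of 10 members called, against 0.546% of all genes. Fbxo32 differed by 0.51 ± 0.12 (limma adjusted p = 0.0940) and Trim63 by 0.57 ± 0.16 (adjusted p = 0.162), and these were the 2 members with an unadjusted p under 0.05, against 4.18% of all genes in that direction. Without both arrays that stood apart, Trim63 differed by 0.75 with an adjusted p of 0.0323, and so passed. It did not pass with any single array left out. Its difference then lay between 0.44 (without knockout exercised array 1) and 0.67, with limma adjusted p from 0.0683 to 0.361. The slow-muscle marker list (7 of 7 measured) varied between knockout arrays, from -0.16 to 0.72 after exercise and from -0.70 to 0.69 at rest, against -0.13 to -0.042 and -0.45 to 0.060 in wild-type muscle. Its part in these differences was not tested.

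Other parts of the same machinery were read from gene lists chosen with earlier results of these data known. Of the transcriptional and signalling regulators of the atrophy genes, 19 of 20 were tested. Averaged over genotypes, 2 of these 19 were called for exercise, against 1.60% of all genes, and both rose. They were Ppargc1a, the mitochondrial coactivator known to hold back atrophy genes (1.51, limma adjusted p = 2.78e-05), and Foxo1, a FoxO factor (0.82 ± 0.12, adjusted p = 0.00164). Whether Foxo1 acts on any member was not tested. In knockout muscle Foxo1 stood at 7.99, 7.99 and 8.19 after exercise, against 7.39, 7.71 and 7.15 at rest. Its wild-type levels were 8.11, 8.07 and 8.51 after exercise, against 7.41, 6.88 and 7.43 at rest. Exercised and sedentary arrays of Foxo1 were apart in both genotypes.

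Within knockout muscle, 1 of 19 regulators was called for exercise, against 0.276% of all genes. It was Ppargc1a, which rose by 1.70 (limma adjusted p = 0.00100). Foxo1 there differed by 0.64 (adjusted p = 0.170), Junb by 0.011 and Acvr2b by -0.075. Within wild-type muscle, 3 of 19 regulators were called higher and 1 lower, against 0.473% and 0.0946% of all genes. Foxo1 rose by 0.99 (adjusted p = 0.0100), Ppargc1a by 1.31 (adjusted p = 0.00429) and Junb, a transcription factor that maintains muscle mass in mouse, by 0.98 (adjusted p = 0.0410), while Acvr2b, a receptor for myostatin, fell by 0.50 (adjusted p = 0.0449). Junb is also in the immediate-early gene list. On wild-type exercised array 1 Junb stood at 7.41, against 6.36 and 6.97 on the other wild-type exercised arrays. Acvr2b stood at 5.73 there, against 6.01 and 5.90. None of the 19 regulators passed the test of the difference between the genotypes, and none was called for the knockout. Of 11 tested substrates named for these ligases, 1 was called for averaged exercise, against 1.60% of all genes. It was Myod1, the myogenic factor targeted by atrogin-1, which fell by 0.63 ± 0.10 (limma adjusted p = 0.00349). Its exercised arrays lay below its sedentary ones in both genotypes.

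None of the structural or enzymatic lists had a called gene in any comparison. Averaged over genotypes, the median exercise effect was -0.012 over 25 other muscle ligases, 0.050 over 16 cullin-RING scaffold and adaptor genes and -0.0088 over 9 ubiquitin and conjugating enzyme genes, against -0.011 over all genes. For the 10 other ASB genes tested it was -0.082, with 0 positive and 10 negative values, where 45.7% of all genes were positive. The regulators had a median of 0.17 and the substrates of 0.020.

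Likeness of pattern was described by Pearson's r with each of the other genes over the 12 arrays, which share groups, so r reflects group differences as well as array-to-array variation. The r values named are the highest picked from all genes tested, so they are high by selection, and none was tested. Closest to Trim63 were Ppp1r15a, which restores translation under stress (r = 0.938), Klf15, a glucocorticoid-induced factor (r = 0.920), and the mitochondrial carrier gene Slc25a33 (r = 0.917). Klf15 also headed the order for Fbxo32 (r = 0.943), before Sesn1, a stress-induced inhibitor of mTORC1 (r = 0.916), and Eif4ebp1, a repressor of translation that mTORC1 switches off (r = 0.907). Fbxo40 and Asb14 each had the other as their closest gene of all those tested (r = 0.950). None of the 3 genes closest to Asb2, Asb5, Asb10, Asb11 or Asb15 was a member, their highest r being 0.937 with Nectin2, 0.915 with Mir181c, 0.854 with 4930565D16Rik, 0.899 with Clca1 and 0.862 with Tapt1. Fbxo30 was closest to Tbc1d15 (r = 0.914).

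Klf15 stood at 8.06, 7.79 and 7.61 in exercised knockout muscle, against 7.42, 7.73 and 7.31 in sedentary knockout muscle. In wild-type muscle Klf15 stood at 7.62, 7.16 and 7.34 after exercise, against 7.42, 6.85 and 7.08 at rest. Its groups overlapped, and no comparison of it passed (averaged exercise effect 0.29 ± 0.12, limma adjusted p = 0.332, and averaged knockout effect 0.41 ± 0.12, adjusted p = 0.176). Of the other genes close to Trim63, Slc25a33 rose with exercise by 0.79 on average (adjusted p = 0.000292), and of those close to Fbxo32, Sesn1 rose in exercised knockout over exercised wild-type muscle by 0.84 (adjusted p = 0.0495).

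**Figure D4:**
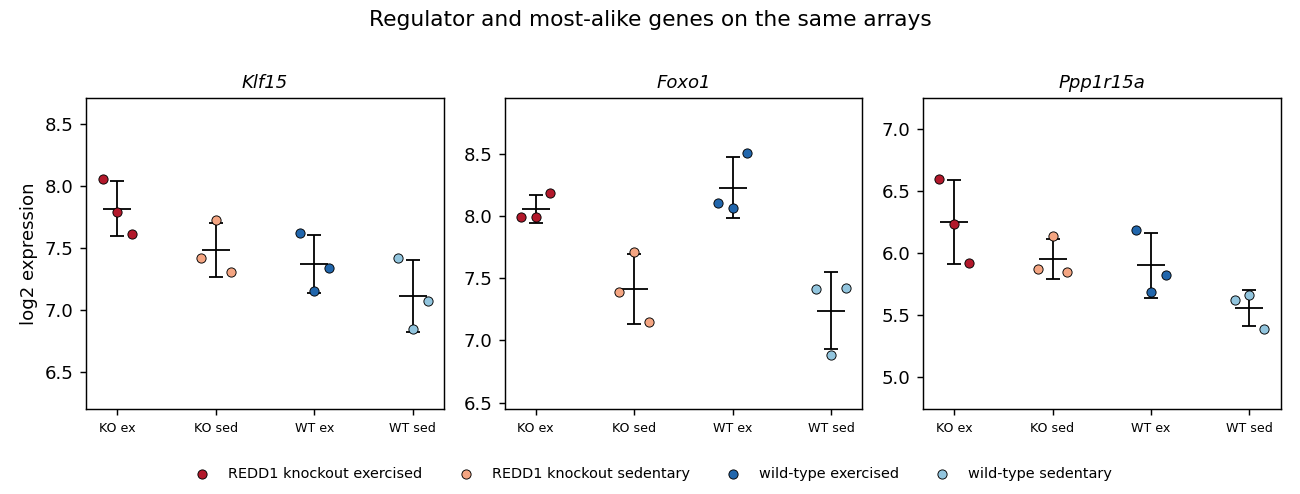
Log2 expression (y axis) of Klf15, Foxo1 and Ppp1r15a in REDD1 knockout exercised, REDD1 knockout sedentary, wild-type exercised and wild-type sedentary plantaris, with arrays as points, means as long bars and 1 SD as whiskers (n = 3). Klf15 and Ppp1r15a have their highest mean in exercised knockout muscle, and their knockout groups overlap, whereas exercised and sedentary arrays of Foxo1 are apart in both genotypes.

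To see how members vary between arrays of the same group, each value was set against its group mean and the deviations of all 45 member pairs were correlated over 12 arrays, with exact permutation within groups (two-sided, smallest possible p 0.000772). Of the pairs, 25 had a positive r and 7 an unadjusted exact p under 0.05. Pairs of other genes were not correlated in this way. These counts thus have no share over all genes beside them and cannot be read as particular to the members. No pair passed after Benjamini-Hochberg adjustment over the 45. Fbxo40 and Asb14 had r = 0.953 (exact permutation p = 0.00231, adjusted 0.0984) and rho = 0.923 (exact permutation p = 0.00154, adjusted 0.0694), and r was 0.873 without the 2 arrays farthest from the median of Fbxo40. Trim63 and Fbxo32 had r = 0.847 (exact permutation p = 0.00772, adjusted 0.0984) and rho = 0.776 (exact permutation p = 0.0239), with r = 0.784 without the 2 farthest arrays. For Trim63 and Asb15 r was 0.765 (exact permutation p = 0.00617, adjusted 0.0984), and 0.874 without the 2 farthest.

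**Figure D5:**
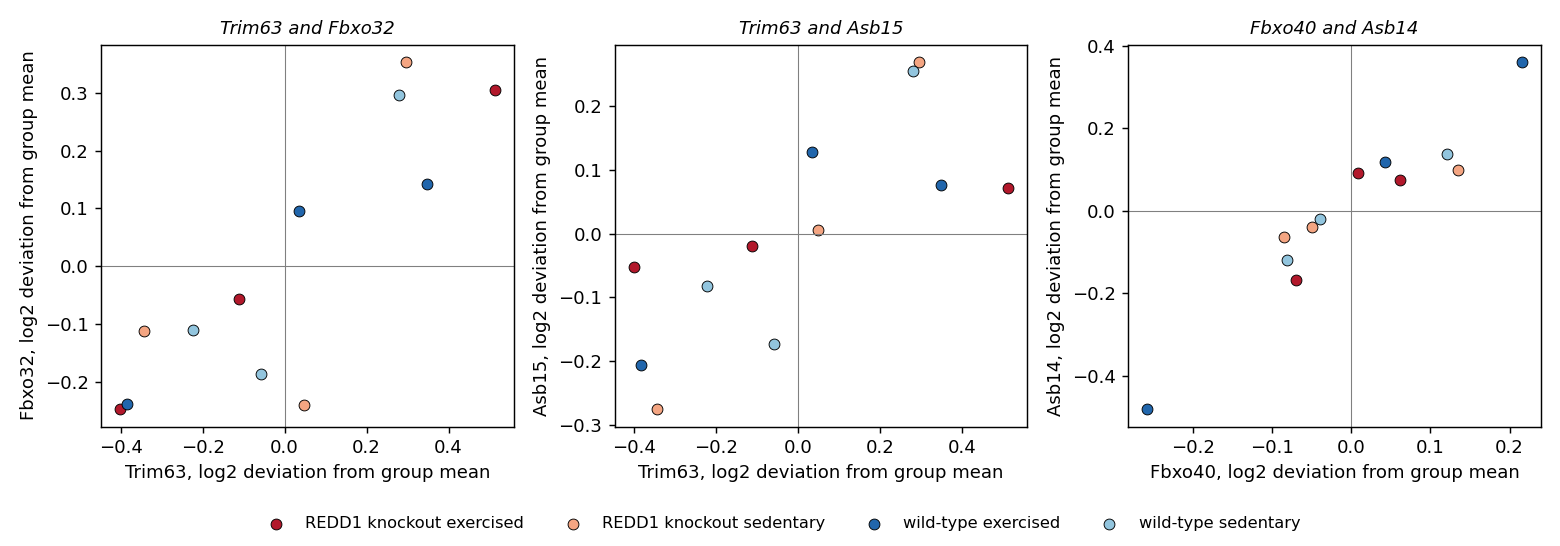
Deviation of each array from its group mean, in log2 units, for Trim63 (x axis) against Fbxo32 and against Asb15, and for Fbxo40 (x axis) against Asb14. Points are the 12 arrays, coloured by group; the points run from lower left to upper right in all 3 panels (r = 0.847, 0.765 and 0.953), and in the Fbxo40 panel wild-type exercised arrays take both ends.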

How the data were processed

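The authors deposited expression values per transcript cluster, taken as log2 from their range (0.357 to 13.9). The log base, background correction and normalisation are not given in the sources used here, and Partek is the only software named, per the submitters' processing notes. RNA was labelled with an Affymetrix whole-transcript kit, per the labels' protocols. Of 41345 clusters, 23521 had exactly 1 gene symbol in the platform annotation, and for a gene with several clusters the one with the highest mean was used. Genes entered the tests when 3 or more arrays lay above 4.56, the median of the table.

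Tests used R 4.3.3 and limma 3.58.1 (two-sided tests from lmFit and eBayes, whose prior followed intensity). The 12 arrays were fitted together by group, leaving 8 residual degrees of freedom. P-values were adjusted by Benjamini-Hochberg over the 13747 genes within each of 7 contrasts and called under 0.05. The fit was checked on simulated data with changes in the wild-type exercised group and independent errors for each gene. Shifts of a whole array shared by many genes were not part of that check. No raw intensities or depth were used, so the number of arrays limits precision.

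The members and gene lists were chosen with earlier results of these data known. Named were the 10 members, Ddit4, called genes of the pathway lists (up to 8 a list) and, for each member, the 3 genes of highest r. Marker lists for cell types were read as the mean deviation of their measured genes from the 12-array mean. Of 103 pathway list genes, 90 were tested. Promoter letters were searched on both strands of RefSeq windows (GRCm38.p6), and the array's own genome build was not used. Alternatives covered the prior, moderation, normalisation, dim-gene filter, array weights, cluster choice, groups in the fit and leaving out arrays.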

Additional observations from a re-analysis of the deposited data

How the results depend on the processing

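Each of 70 member differences (10 genes, 7 comparisons) was recomputed under the alternatives, giving 1580 values: 1512 kept direction and side of the threshold, 5 lost and 4 gained the call, and 59 turned sign, none of these being called in either setting. The cause of these shifts was not tested. Averaged exercise called 1 member, but 0 without moderation (Trim63 adjusted p = 0.219), 0 without both arrays that stood apart, 2 with array weights (Trim63 and Asb5, adjusted p = 0.0320) and 0 to 1 leaving out single arrays (Trim63 0.66 to 0.89). The averaged knockout effect called 1 with array weights (Fbxo32, 0.52, adjusted p = 0.0345) and 1 without both arrays, against 0. Leaving out single arrays it called 0 to 0.

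Genes called by analysis of variance without moderation numbered 0, 12 and 67 for exercise in knockout, in wild type and averaged (38, 78 and 220 by limma), and 1, 1 and 23 for knockout after exercise, at rest and averaged (24, 19 and 75). Array weights gave 83, 127 and 348 for exercise in knockout, in wild type and averaged, and 89 and 193 for knockout after exercise and averaged. Without the intensity trend there were 24 for exercise in knockout and 42 for averaged knockout, and fits of only the groups compared gave 25 for exercise in knockout and 13 for knockout after exercise. Without both arrays there were 45 and 139 for knockout after exercise and averaged. Leaving out single arrays gave 16 to 71, 46 to 90 and 144 to 220 for exercise in knockout, in wild type and averaged, 5 to 40, 6 to 27 and 38 to 149 for knockout after exercise, at rest and averaged, and 0 to 0 for the difference of effects.

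Leaving out single arrays turned the sign of 19 differences, given by their lowest and highest log2 value. For exercise in knockout these were Asb14 -0.020 to 0.11, Asb2 -0.13 to 0.17, Fbxo40 -0.060 to 0.050. For exercise in wild type these were Asb10 -0.063 to 0.14, Asb11 -0.069 to 0.12, Fbxo30 -0.13 to 0.017. For the difference of effects these were Asb10 -0.043 to 0.16, Trim63 -0.10 to 0.35. For knockout after exercise these were Asb14 -0.17 to 0.25, Fbxo40 -0.086 to 0.15. For knockout at rest these were Asb10 -0.11 to 0.094, Asb11 -0.073 to 0.11, Asb2 -0.07 to 0.19, Asb5 -0.18 to 0.031, Fbxo30 -0.45 to 0.0047. For the averaged knockout effect these were Asb10 -0.031 to 0.073, Asb15 -0.12 to 0.021, Asb5 -0.017 to 0.087, Fbxo30 -0.14 to 0.092. Signs turned without both arrays that stood apart for exercise in wild type Fbxo30 to 0.010, for exercise in knockout Asb2 to -0.13 and Asb14 to -0.005, for knockout at rest Asb5 to 0.010 and Asb10 to 0.0087 and Asb11 to 0.059, for knockout after exercise Fbxo40 to -0.086 and Asb14 to -0.17, for the averaged knockout effect Asb15 to 0.04. Signs turned with quantile normalisation for exercise in knockout Asb2 to -0.036 and Asb14 to -0.038, for knockout at rest Asb11 to 0.020. Signs turned with array weights for exercise in knockout Asb2 to -0.019, for the difference of effects Asb10 to -0.0088, for knockout at rest Asb11 to 0.016, for knockout after exercise Fbxo40 to -0.048 and Asb10 to -0.021 and Asb14 to -0.072, for the averaged knockout effect Asb10 to -0.017.

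No paired analysis was possible because replicate numbers were given in sample order and the labels tie no sample to another. With 3 arrays a group, the number of arrays limits what the tests can call.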
